A study of Mus musculus with 9 samples.

Results

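Genes of calcium and potassium handling were followed through the H3K27ac and H3K4me1 peak lists of mouse oviductal muscle cells. They were taken by name and known role, not by a threshold on a measured value: Cacna1c, Kcnma1, Kcnmb1, Itpr1, Ryr2, Ano1, Atp2a2, Atp2b1, Stim1 and Orai1, which are 10 of 21853 protein-coding genes in the annotation used. Every peak that touched a gene body or the 25 kb on either side of it was counted. Peaks were split into promoter peaks, which reached within 1 kb of an annotated start of a protein-coding transcript, intragenic peaks and flanking peaks.

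The cells were primary oviductal muscle cells of WT mice, 8 to 12 weeks old, mated to stud males and taken on Day 2 of pregnancy. The oviducts were digested with trypsin, collagenase and dispase, passed through a filter without a sort, kept for 4 h in medium with 12% charcoal-stripped serum and for 2 h in 10% serum, and fixed. ChIC-Seq was run on 50000 cells per library, with an antibody that brings protein A-MNase to the mark, and gave 3 H3K27ac, 3 H3K4me1 and 3 IgG samples. No treated or mutant group was part of the comparison, so the values below compare the 2 marks and the 10 genes. The labels do not say whether the replicates came from separate animals, so any p-value measures only the spread between these samples, which may be technical.

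Contraction of smooth muscle follows a rise of calcium in the cytosol. Calcium enters through voltage-gated channels and is released from the sarcoplasmic reticulum through inositol trisphosphate and ryanodine receptors, the calcium-activated chloride channel Ano1 depolarises the membrane, and the large-conductance potassium channel opposes it. Pumps then return calcium to the store or move it out of the cell, and a sensor in the store membrane opens entry channels when the store is empty. H3K27ac marks active promoters and enhancers, and H3K4me1 is typical of enhancers and of the borders of active promoters.

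The replicate lists rested on 40551842 to 78891920 fragments per library against 3110985 to 3713369 IgG fragments, to which each call was scaled down. They held 93684 to 152889 peaks, with median fold enrichments of 1.43 to 1.62 over the local background, so a peak in 1 list alone is weak evidence. IgG library 2 was the control of H3K27ac replicate 2 and of H3K4me1 replicates 1 and 2, and IgG library 3 that of replicate 3 of both marks. As a check of the labelled cell type, the smooth muscle genes Acta2, Des, Smtn and Synpo2 had promoter peaks in all 6 replicate lists (4 of 10 muscle markers, where 24.3% of all protein-coding genes did), while Myh11 had none for H3K27ac in any replicate. Of 6 stromal markers, 5 did so (Col1a1, Col3a1, Dcn, Lum and Vim), against 0 of 7 epithelial, 0 of 4 endothelial, 0 of 6 blood, 1 of 4 neuronal or glial (Elavl4) and 0 of 6 heart and skeletal muscle markers. By H3K27ac alone, the blood gene Ptprc and 1 heart and skeletal muscle marker, Ttn, also had promoter peaks in all 3 lists. The median covered share of the gene body was 50.5% for H3K27ac and 49.1% for H3K4me1 over the stromal markers, and 1.52% and 3.46% over the smooth muscle markers. Of the markers of interstitial cells of Cajal, Kit had no promoter peak in any replicate list, Etv1 had one in 5 lists and Ano1, which smooth muscle also uses, in 6. The part of stromal or interstitial cells in the results below was not tested, and in bulk cells a mark carried by few cells cannot be told apart from a weak mark in all of them.

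The promoter sequences of these genes differed in base composition. Below are the bases just upstream of starts that differed in their marks, written 5′ to 3′ on the strand of the gene in lower case, from RefSeq promoters on GRCm38.p6, with every motif match in capitals and any annotated exon left out. Orai1 and Stim1 had promoter peaks of both marks in all 6 lists. Cacna1c had H3K27ac in all 3 lists at its internal start and in none at its first, and Kcnmb1 had neither mark in any replicate list.
Orai1, chr5:123014824-123015073, + strand: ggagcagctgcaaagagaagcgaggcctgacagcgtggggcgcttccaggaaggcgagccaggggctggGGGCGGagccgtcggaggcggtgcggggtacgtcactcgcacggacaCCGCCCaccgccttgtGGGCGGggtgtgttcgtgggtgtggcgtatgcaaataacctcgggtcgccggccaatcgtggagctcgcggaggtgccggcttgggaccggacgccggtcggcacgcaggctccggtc
Stim1, chr7:102267569-102267805, + strand: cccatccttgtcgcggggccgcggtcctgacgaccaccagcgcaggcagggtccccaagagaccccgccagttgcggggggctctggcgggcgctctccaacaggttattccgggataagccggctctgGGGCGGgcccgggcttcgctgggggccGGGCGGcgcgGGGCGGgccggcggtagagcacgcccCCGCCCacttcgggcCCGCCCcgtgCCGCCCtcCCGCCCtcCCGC
Cacna1c internal start, chr6:119108574-119108745, − strand: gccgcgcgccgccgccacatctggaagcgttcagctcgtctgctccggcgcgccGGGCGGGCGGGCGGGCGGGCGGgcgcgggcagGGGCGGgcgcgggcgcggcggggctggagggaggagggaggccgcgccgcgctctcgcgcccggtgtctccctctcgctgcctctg
Cacna1c first start, chr6:119196419-119196659, − strand: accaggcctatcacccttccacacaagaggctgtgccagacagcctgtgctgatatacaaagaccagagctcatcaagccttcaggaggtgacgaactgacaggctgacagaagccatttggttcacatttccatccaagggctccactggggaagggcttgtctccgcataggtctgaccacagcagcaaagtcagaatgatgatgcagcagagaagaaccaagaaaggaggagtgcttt
Kcnmb1, chr11:33962763-33963012, + strand: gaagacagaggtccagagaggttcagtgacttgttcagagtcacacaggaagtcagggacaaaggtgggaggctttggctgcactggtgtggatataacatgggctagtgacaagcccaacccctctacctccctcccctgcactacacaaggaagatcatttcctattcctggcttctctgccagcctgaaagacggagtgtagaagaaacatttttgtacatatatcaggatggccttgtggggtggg

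The capitals in the Orai1, Stim1 and internal Cacna1c stretches are all GC boxes (GGGCGG, or CCGCCC when read on the other strand), to which factors of the Sp family are known to bind. The final capitals of the Stim1 stretch are part of a box that is cut off where the left-out exon begins. In the 250 bases upstream of the start, GC boxes numbered 3 at Orai1, 8 at Stim1 and 6 at the internal Cacna1c start, counting overlapping copies, and 0 at the first Cacna1c start and at Kcnmb1. RefSeq promoters were found for 8 members, with 11 starts. Itpr1 and Atp2a2 were not in the promoter table. All 6 starts with H3K27ac in 3 lists held a GC box, as did 1 of 2 with H3K27ac in 1 or 2 lists (Kcnma1) and 0 of 3 with none. Over all 32841 RefSeq promoters the box was found in 32.7%, and in 58.5% of those with H3K27ac in 3 lists against 15.0% of those with none. The ratio of observed to expected CpG was 0.503 to 1.17 at the 6 starts with H3K27ac in 3 lists, 0.574 (Ryr2) and 0.795 (Kcnma1) at the 2 with it in 1 list, 0.0627 to 0.317 at the 3 with none, and had a median of 0.374 over all RefSeq promoters. Searched on both strands, neither the CArG box of serum response factor (1.47% of all promoters), AP-1 (TGANTCA, 6.75%), CRE (TGACGTCA, 1.55%) nor TEAD (GGAATG, 12.6%) matched any of the 11 windows. The steroid receptor half-site TGTTCT (16.1%) matched 1, at the 3′-most Cacna1c start. A match is only a match of letters, and these windows are short.

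**Figure D1:**
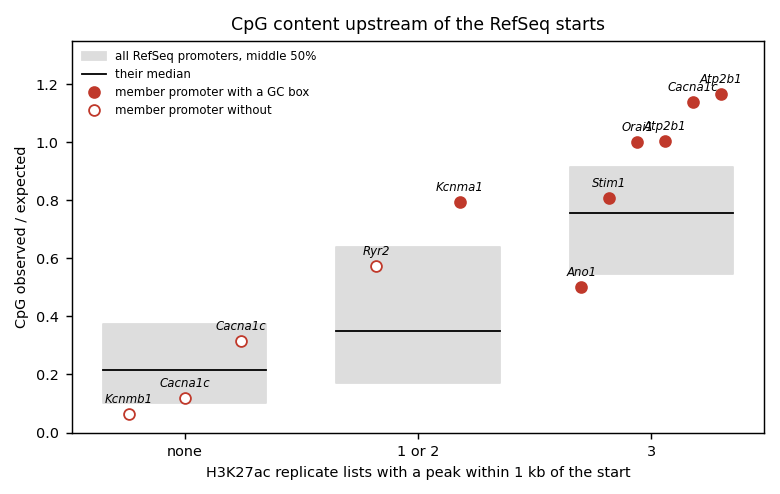
Observed over expected CpG in the 250 bases upstream of 11 RefSeq starts of 8 genes (points, filled where the window holds a GC box), by the number of H3K27ac replicate lists with a peak within 1 kb. Grey bands are the middle 50% of all 32841 RefSeq promoters and lines their medians (0.755 with 3 lists, 0.351 with 1 or 2, 0.214 with none). The members with H3K27ac in 3 lists sit at 0.503 and above, and Kcnmb1 at 0.0627.

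Promoter marking differed widely among the genes. The 2 calcium pumps and the store sensor with its channel, Atp2a2, Atp2b1, Stim1 and Orai1, carried both marks at their principal start in all 6 replicate lists, whereas the potassium channel genes Kcnma1 and Kcnmb1 and the ryanodine receptor gene Ryr2 were almost bare. In numbers, 7 of 10 members had an H3K27ac promoter peak in all 3 lists, where 45.9% of all protein-coding genes did. For H3K4me1 the count was 5 of 10 against 27.9% of genes, for both marks in all 6 lists 5 of 10 against 24.3%, and for no peak in any of the 6 lists 1 of 10 (Kcnmb1) against 32.8%. A gene counted as marked when any of its starts was. Kcnmb1, Atp2a2 and Orai1 have 1 cluster of start sites each and the other members 2 to 5. Of the 28 clusters of start sites, 7 had H3K27ac in 3 lists, 5 had H3K4me1 in 3, and 16 had no peak in any replicate list. The shares over all clusters of protein-coding genes were not computed, so these cluster counts cannot be called high or low. At a window of 3 kb the counts for H3K27ac and H3K4me1 were 7 and 7, with Cacna1c and Itpr1 added for H3K4me1, and with the starts of all transcripts they were 7 and 6, with Itpr1 added. At a window of 250 bp they fell to 4 and 2, and with peaks limited to −log10 p of at least 1.3 they were 6 and 2.

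**Figure D2:**
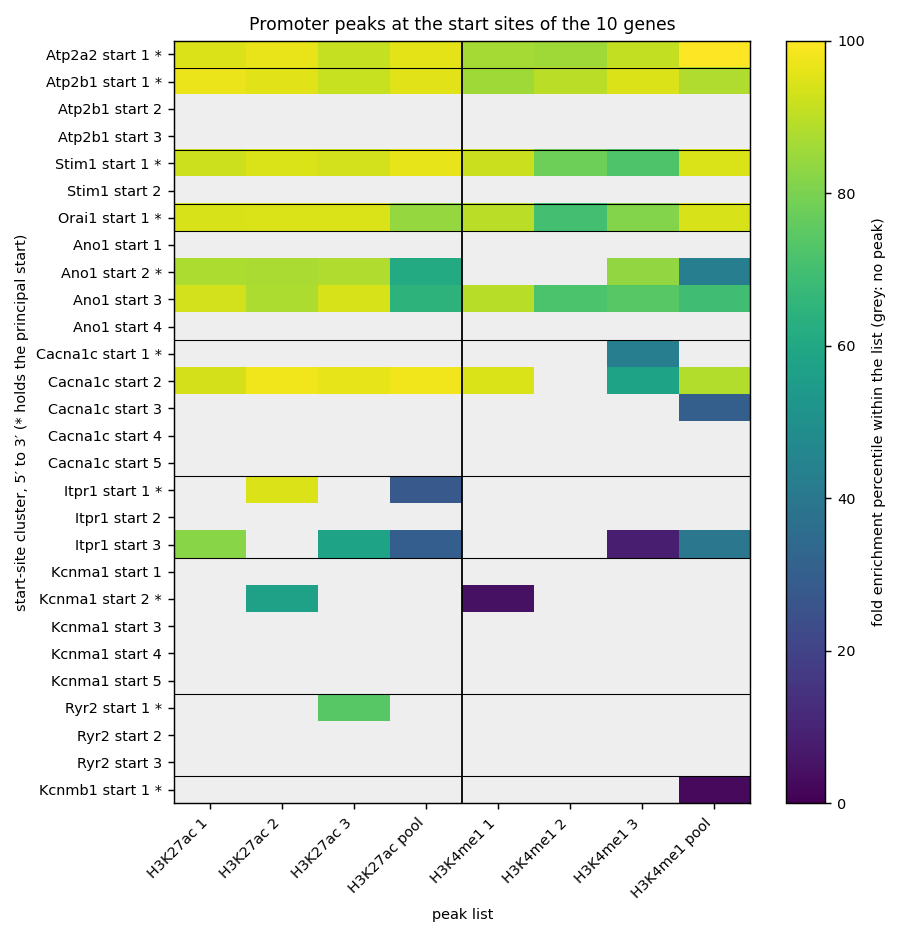
Promoter peaks at the 28 clusters of start sites (rows, 5′ to 3′ within each gene, the asterisk marks the cluster with the principal start) in the 6 replicate and 2 pooled lists (columns). Colour is the percentile of the peak's fold enrichment within its list, and grey means no peak. The principal rows of Atp2a2, Atp2b1, Stim1 and Orai1 are filled in all 8 columns, and the Kcnma1, Ryr2 and Kcnmb1 rows hold 2, 1 and 1 filled cells.

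Atp2a2 encodes the SERCA2 pump that refills the sarcoplasmic reticulum (chr5:122453513-122502225, − strand). Its H3K27ac promoter peak had fold enrichments of 2.02, 2.15 and 1.98 in replicates 1, 2 and 3, at the 94.7, 96.7 and 91.4 percentiles of those lists. That peak was 6804, 7299 and 5172 bp long, and it covered the start base itself in all 3 lists. The H3K4me1 peaks of the same window had folds of 1.84, 1.85 and 1.91 and covered the start in none of 3 lists. In the 250 bp on either side of the start H3K27ac lay in every list and H3K4me1 in none.

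Atp2b1 encodes PMCA1, the housekeeping pump that moves calcium out of the cell (chr10:98914406-99026143, + strand). H3K27ac peaks of 5883, 11419 and 7967 bp lay over its start, with folds of 2.14, 2.08 and 1.98, and covered the whole promoter window in all 3 lists. H3K4me1 covered 78.8%, 51.5% and 33.7% of that window, and the start base itself in replicate 1 only. No list had a peak at the 2 clusters of starts farther down the gene.

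Stim1, the calcium sensor of the store membrane (chr7:102267806-102437319, + strand), had H3K27ac folds of 1.92, 2.04 and 2.04 and H3K4me1 folds of 1.93, 1.77 and 1.74 at its main start. Orai1, the entry channel that STIM1 opens (chr5:123015074-123030456, + strand), had 1.99, 2.03 and 2.08 for H3K27ac and 1.89, 1.71 and 1.81 for H3K4me1. At Orai1 the H3K27ac peak covered the start base in replicate 1 only, and no H3K4me1 peak covered it.

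Taking every member start whose window held peaks of all 6 lists, H3K27ac covered the start base in all 3 lists at 8 of 10 starts, and H3K4me1 in none of 3 at 7 of 10. Over all 10870 such starts of protein-coding genes the shares were 64.8% and 38.0%. Both held together at 5 of the 10 member starts and at 22.4% of all. Several of the 10 starts belong to the same gene and share peaks, so they are not independent.

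**Figure D3:**
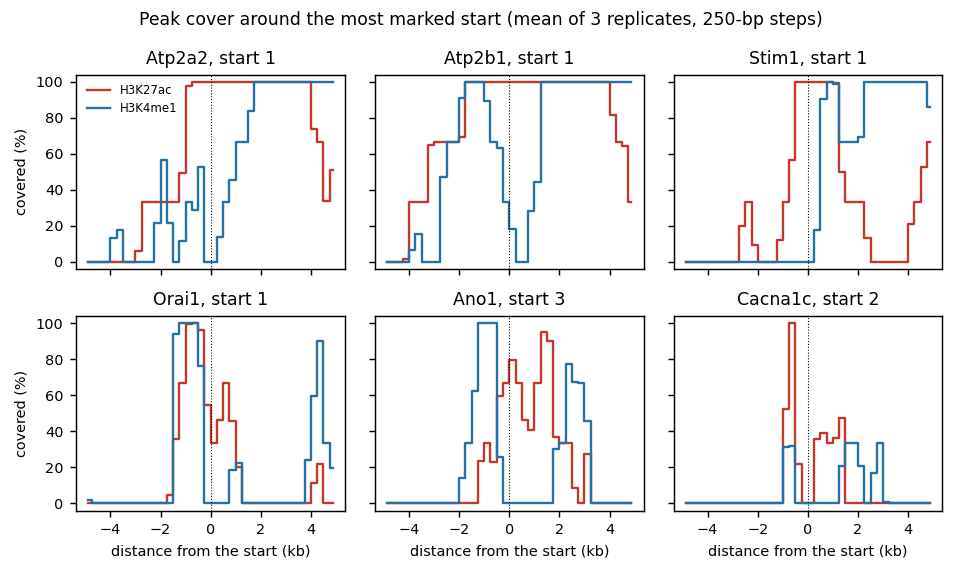
Share of each 250-bp step under peaks from 5 kb before to 5 kb after the most marked start of 6 genes, as the mean of 3 replicate lists for H3K27ac (red) and H3K4me1 (blue). At Atp2a2, Atp2b1 and Stim1 the H3K27ac line is at 100% on both sides of the start (dotted line), while the H3K4me1 line is at or falls to 0% at or just after it, as it also does at Orai1, Ano1 and Cacna1c.

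Ano1, the calcium-activated chloride channel (chr7:144588549-144751974, − strand), was marked at 2 internal clusters of starts and not at its 5′-most one. The cluster with the principal start, 13.38 kb into the gene, had H3K27ac folds of 1.79, 1.83 and 1.89 but H3K4me1 in replicate 3 only. A further start at 73.09 kb had peaks of both marks in all 6 lists, with H3K27ac folds of 1.95, 1.85 and 2.06 and H3K4me1 folds of 1.88, 1.72 and 1.75. The call for both marks at Ano1 therefore rests on that start, which belongs to 1 of its 6 coding transcripts.

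Cacna1c encodes the pore of the L-type calcium channel (chr6:118587240-119196418, − strand). Its first cluster of starts, which holds the principal transcript, had no H3K27ac peak and an H3K4me1 peak in replicate 3 only. The second cluster, 87.84 kb into the gene and used by 12 of 22 coding transcripts, had H3K27ac folds of 1.97, 2.24 and 2.17, at the 93.5, 97.9 and 96.2 percentiles. H3K4me1 was found there in replicates 1 and 3, with folds of 1.98 and 1.66, and not in replicate 2. Without H3K4me1 replicate 2, Cacna1c joined the genes with both marks in every remaining list. The other 3 clusters of starts had no peak in any replicate list, and 1 of them had one in the pooled H3K4me1 list.

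Itpr1, the inositol trisphosphate receptor of the store (chr6:108213096-108551109, + strand), had an H3K27ac promoter peak in all 3 lists only when its starts were pooled. At the main start the peak was in replicate 2 alone, with a fold of 2.05. At the internal cluster 203.7 kb downstream it was in replicates 1 and 3, with folds of 1.67 and 1.55, and H3K4me1 was in replicate 3 alone. No single Itpr1 start thus repeated over the 3 lists.

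Kcnma1, the pore of the BK potassium channel (chr14:23289431-24014491, − strand), had a promoter peak of 776 bp in H3K27ac replicate 2, with a fold of 1.55, and one of 714 bp in H3K4me1 replicate 1, with a fold of 1.42, and none in the pooled lists. Ryr2, the ryanodine receptor best known from heart (chr13:11553102-12106945, − strand), had 1 peak, in H3K27ac replicate 3 with a fold of 1.66, that covered 4.8% of the window. Kcnmb1, the smooth muscle subunit of the BK channel (chr11:33963013-33973641, + strand), had none in the 6 replicate lists, and the pooled H3K4me1 list held 1 at the 2.72 percentile of fold enrichment. With −log10 p of at least 1.3, these 3 genes had no promoter peak at all in the 6 lists.

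Neighbouring promoters inside the loci were read separately. Dcp1b, whose start lies within the Cacna1c body on the opposite strand, Ankrd26 at the far edge of that locus and Kdm2b beside Orai1 had both marks in all 6 lists. Fadd beside Ano1 and Rhog beside Stim1 had H3K27ac in 3 lists and H3K4me1 in 2, and Rrm1 beside Stim1 had H3K27ac in 3 and H3K4me1 in 0. Morn3 beside Orai1 and the Anapc7 start that lies in the Atp2a2 locus had no peak in any list. Kcnmb1 lies inside Kcnip1, whose body covers it on the other strand, and no start of Kcnip1 or of 4930469K13Rik lies in the locus.

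The gene bodies gave the reverse order of marks. H3K4me1 covered more of the body than H3K27ac, outside all promoter windows, in every member by the mean of 3 lists, and in 7 of 10 members the 3 H3K4me1 values all lay above the 3 H3K27ac values. These were Cacna1c, Kcnma1, Itpr1, Ano1, Atp2b1, Stim1 and Orai1. Over all 14840 protein-coding genes with any cover, 18.7% had H3K4me1 wholly above and 5.36% H3K27ac, and of the 2441 such genes of at least 100 kb, 39.9% and 2.95%. No member had H3K27ac wholly above. Divided by the share of the genome that each list covers, 4 of 10 members remained apart (Cacna1c, Kcnma1, Atp2b1 and Stim1), where 13.9% of all genes did in that direction and 8.04% in the other.

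Atp2b1 had the most H3K4me1 cover of the 10 in each list, and for H3K27ac it was level with Atp2a2, which was higher in replicate 2 and lower in replicates 1 and 3. At Atp2b1, H3K27ac lay over 24.97%, 23.4% and 23.1% of the body in replicates 1, 2 and 3 (23.8% ± 1.01, SD, n = 3), and H3K4me1 over 45.4%, 49.9% and 43.8% (46.3% ± 3.17, SD, n = 3). Those means stood at the 92.9 and 97.1 percentiles of all protein-coding genes. The 2 groups of values were far apart, and the lowest H3K4me1 list exceeded the highest H3K27ac list.

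Atp2a2 had 18.4%, 31.2% and 19.9% under H3K27ac and 29.4%, 33.3% and 25.9% under H3K4me1. Here the groups overlapped, because H3K27ac replicate 2 lay above 2 of the H3K4me1 lists. Its means stood at the 92.7 percentile for both marks.

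Itpr1, despite its weakly marked starts, had 11.8%, 11.8% and 6.73% under H3K27ac and 19.8%, 18.4% and 13.8% under H3K4me1. Stim1 had 15.6%, 10.1% and 10.3% under H3K27ac and 18.4%, 18.5% and 18.0% under H3K4me1. In both genes the groups were separate, and both means of each gene stood at the 80.8 to 86.1 percentiles.

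Among the channels with large genes, Kcnma1 had 3.87%, 2.81% and 2.37% under H3K27ac and 6.07%, 7.21% and 7.16% under H3K4me1. Cacna1c had 2.02%, 1.58% and 1.352% under H3K27ac and 5.15%, 5.34% and 3.70% under H3K4me1. Both were separate between marks. Their means stood at the 52.6 to 69.6 percentiles of all protein-coding genes, those with no cover included, and at the 31.8 and 43.7 percentiles (Cacna1c) and 46.0 and 53.5 percentiles (Kcnma1) of genes of at least 100 kb. Both H3K27ac means lay below the median of genes with cover, 4.25%.

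Ano1 had 1.18%, 4.96% and 2.75% under H3K27ac and 7.98%, 7.16% and 4.98% under H3K4me1, so its groups were separate by less than the width of either. Ryr2 had 2.22%, 1.15% and 0.806% under H3K27ac and 2.49%, 2.45% and 1.92% under H3K4me1, which overlapped. The short genes gave coarse values: Orai1 had 0%, 2.77% and 0% under H3K27ac and 3.40%, 7.48% and 9.004% under H3K4me1, and Kcnmb1 had 0% in each H3K27ac list and 7.35%, 0% and 7.79% under H3K4me1. A single peak made most of each of those last values.

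By an exact two-sided permutation test, in which 6 lists can be given to 2 marks in 20 ways, the 7 separate members had p = 0.1, which is the smallest the design allows. The Benjamini-Hochberg value over all 14840 genes was 0.415 for each of them, so no member passed 0.05. Among pairs of lists called against the same IgG library (H3K27ac replicate 2 with H3K4me1 replicates 1 and 2, and replicate 3 with replicate 3), H3K4me1 was higher in every pair for 8 members, the 7 above and Ryr2, and H3K27ac for 0. Over all 14840 genes the shares were 35.4% and 10.9%. Among the replicate lists IgG library 1 was used for H3K27ac only, so it gives no such pair.

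**Figure D4:**
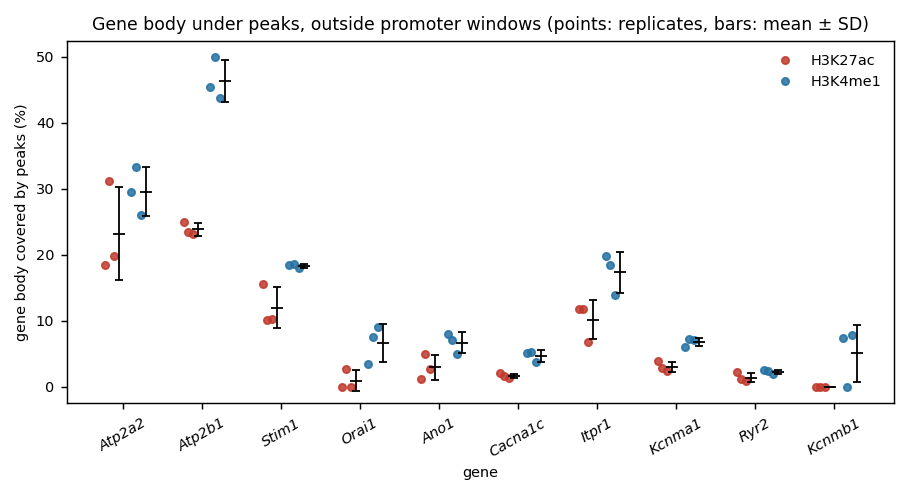
Percent of the gene body under peaks, outside promoter windows, for each gene. Points are the 3 replicate lists of H3K27ac (red) and H3K4me1 (blue), and the black marks beside them are the mean ± SD. Atp2b1 averages 23.8% and 46.3%, Atp2a2 averages 23.2% and 29.6%, and Ryr2 lies near the bottom with 1.39% and 2.29%.

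Position along the gene differed among members. Each gene body was cut into 5 equal segments, numbered from the 5′ end, with promoter windows included. Atp2a2 had 71.5% ± 4.39 of segment 1 under H3K27ac and 85.1% ± 5.22 under H3K4me1 (SD, n = 3), against 7.79% ± 7.65 and 2.88% ± 4.99 in segment 4. Atp2b1 had H3K4me1 over 72.4%, 66.0% and 62.5% of segments 1 to 3 on average, then 1.31% of segment 4 and 21.2% of segment 5. H3K27ac had 43.0%, 35.1%, 19.2%, 0% and 24.5% of the same segments.

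Kcnma1 had the opposite slope. Its segment 1, which holds the principal start, had 0.487% ± 0.677 under H3K27ac and 1.12% ± 0.289 under H3K4me1, and its segment 4 had 7.12% ± 1.39 and 14.3% ± 2.37. In each of the 6 lists segment 4 was the most covered. Itpr1 had H3K4me1 over 24.4% and 26.0% of segments 1 and 2, 0.466% of segment 3 and 19.7% of segment 4, a gap that all 3 H3K4me1 lists showed. Its H3K27ac was highest in segment 4 in replicates 1, 2 and 3, at 24.8%, 21.3% and 11.6%.

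Ryr2 had most of its cover in segment 2, at 3.7% ± 1.3 for H3K27ac and 7.77% ± 0.703 for H3K4me1. Cacna1c had 13.6%, 13.7% and 5.7% of segment 2 under H3K4me1 in replicates 1, 2 and 3, and 5.39%, 4.95% and 5.57% of segment 1, so that segment 2 stood above segment 1 in replicates 1 and 2 and was level with it in replicate 3. Ano1 had almost none in segments 4 and 5, with means from 0% to 0.91%.

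**Figure D5:**
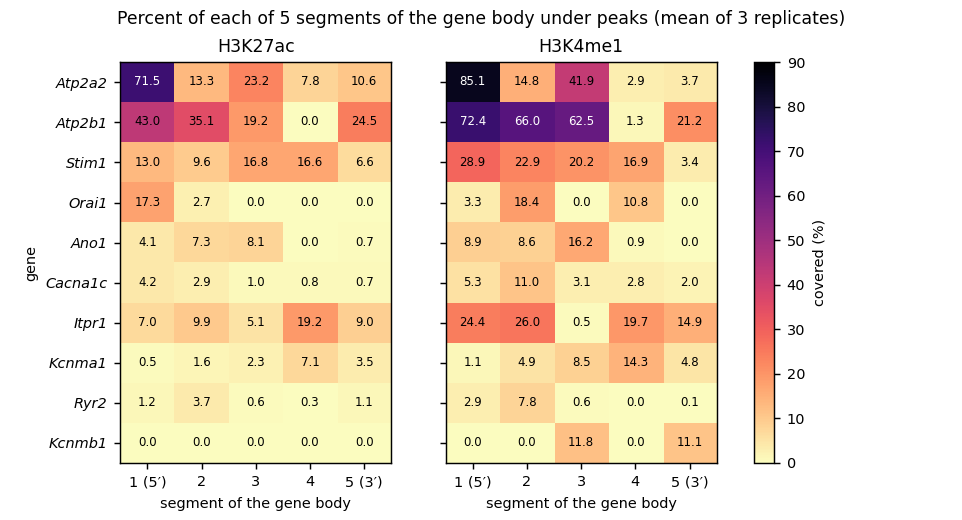
Mean percent of each of 5 equal segments of the gene body under peaks, from the 5′ end to the 3′ end, over the 3 replicate lists of H3K27ac (left) and H3K4me1 (right). Promoter windows are included. Atp2a2 and Atp2b1 are dark at the 5′ end (71.5% and 43.0% for H3K27ac, 85.1% and 72.4% for H3K4me1), and Kcnma1 is highest in segment 4 (7.12% and 14.3%).

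In the flanks, 25 kb on each side outside promoter windows, the 3 lists of a mark were all on one side of the other mark in 3 of 10 members. H3K4me1 lay wholly above H3K27ac in 2 of 10 members, Kcnmb1 and Atp2a2, where 11.7% of all protein-coding genes with cover did, and H3K27ac wholly above in 1, Atp2b1, where 8.66% did. Kcnmb1 had 1.87%, 2.70% and 0% under H3K27ac and 8.37%, 8.09% and 4.06% under H3K4me1. Atp2a2 had 1.76%, 7.73% and 0.647% under H3K27ac and 11.1%, 14.1% and 8.62% under H3K4me1. Atp2b1 had 18.6%, 18.3% and 19.1% under H3K27ac and 10.4%, 16.5% and 15.3% under H3K4me1. By the exact permutation test all 3 had p = 0.1, the smallest possible, and 0.490 after adjustment over 19303 genes. Each of the 3 was lost under some setting. Kcnmb1 was no longer separate with −log10 p of at least 1.3. The setting without the bodies of other genes says nothing about Kcnmb1, because Kcnip1 and 4930469K13Rik together cover both its flanks and leave no sequence. Atp2a2 was lost with that filter, after division by the genome share of each list, as peaks per 10 kb or at a flank of 10 kb. Atp2b1 was lost with peaks of at least 5 times mean coverage, as peaks per 10 kb, or at flanks of 10 or 50 kb. Among pairs of lists that share an IgG library, H3K4me1 was higher in every pair for 6 members and H3K27ac for 3 (Ryr2, Atp2b1 and Stim1), where 27.3% and 17.1% of all genes were.

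Regions marked by both H3K27ac and H3K4me1 in at least 2 of 3 replicates each, away from every promoter window of a protein-coding gene, are the usual candidates for active enhancers. The 10 loci, 3.25 Mb together, held 94 of them, 75 inside the gene bodies, with 75.8 kb in all. No minimum length was set, and 1 region at Atp2b1 was 4 bp long. A single peak can give several regions, so these are not counts of separate elements. Regions of at least 200 bp numbered 73. The count of 94 fell to 52, 49 and 61 without H3K27ac replicates 1, 2 and 3, and to 9 with −log10 p of at least 1.3. Atp2b1 had 27, Itpr1 18, Kcnma1 16, Stim1 12, Atp2a2 10, Ryr2 5, Cacna1c 3, Ano1 2, Orai1 1 and Kcnmb1 0. Per 100 kb of locus this was 16.7 at Atp2b1, 10.1 at Atp2a2, 5.47 at Stim1, 4.64 at Itpr1, 2.06 at Kcnma1, 1.53 at Orai1, 0.937 at Ano1, 0.828 at Ryr2, 0.455 at Cacna1c and 0 at Kcnmb1, where the whole genome had 1.78, so 5 members lay above it and 5 below. Some of the 94 are the parts of promoter peaks that reach past the 1-kb window. The Atp2a2 region chr5:122497721-122500894 and the Atp2b1 regions chr10:98911757-98913405 and chr10:98916473-98919136 had the H3K27ac folds of those genes' promoter peaks. How far such parts raise the densities was not tested. In 25 of the 94 some bases lay under peaks of all 6 lists, of which 8 were at Atp2b1 and 6 at Itpr1. Of the distal H3K27ac sequence in the loci 77.7% also had H3K4me1, and of the distal H3K4me1 sequence 29.3% had H3K27ac, against 63.7% and 33.3% over the genome.

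The share of distal H3K4me1 that also had H3K27ac differed among the genes. It was highest at Atp2a2 (45.6% of 19.1 kb) and Atp2b1 (44.1% of 59.2 kb), followed by Stim1 (38.7% of 30.7 kb) and Itpr1 (28.1% of 58.3 kb). Kcnma1 (41.6 kb), Ryr2 and Ano1 (10.8 kb each) lay between 17.8% and 18.8%. It was lowest at Orai1 (11.2% of 2.39 kb), Cacna1c (3.13% of 23.3 kb) and Kcnmb1 (0% of 2.74 kb). These shares were not tested.

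The longest shared region of the 10 loci, 4605 bp at chr7:102244483-102249087, lay upstream of Stim1, with its centre at -21.02 kb from the gene start, and within the neighbouring gene Rhog. Its H3K27ac folds were 2.37, 2.11 and 2.2, at the 99.0, 95.9 and 96.7 percentiles, and its H3K4me1 folds 1.96, 2.04 and 2.04. At Itpr1 the longest was 3264 bp at chr6:108455639-108458902, 244.2 kb into the gene and touching an exon, with H3K27ac folds of 1.94, 2.00 and 2.35. At Atp2a2 it was 3174 bp at chr5:122497721-122500894, which adjoins the promoter window. All 3 regions had peaks in each of the 6 lists.

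At Atp2b1 the longest was an intronic region of 2960 bp at chr10:98946597-98949556, of which only 21 bp lay under all 6 lists. At Kcnma1 it was 2249 bp at chr14:23471220-23473468, 542.1 kb into the gene and touching an exon, and at Ano1 1576 bp at chr7:144689258-144690833 in an intron. Ryr2 had 1035 bp at chr13:11926279-11927313 in an intron, with peaks in 4 of 6 lists, and Cacna1c 508 bp at chr6:119037455-119037962 in an intron, with peaks in all 6. The only region at Orai1 was 268 bp at chr5:123013806-123014073, which adjoins the promoter window, with peaks in 5 lists.

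For 3 of these the middle of the stretch under all 6 lists is shown, + strand of GRCm38, as examples from a gene with almost unmarked starts (Kcnma1), one marked at an internal start (Cacna1c) and one marked at its main start (Stim1). Capitals again mark matches to the motifs named above.
Stim1 upstream, chr7:102248295-102248544: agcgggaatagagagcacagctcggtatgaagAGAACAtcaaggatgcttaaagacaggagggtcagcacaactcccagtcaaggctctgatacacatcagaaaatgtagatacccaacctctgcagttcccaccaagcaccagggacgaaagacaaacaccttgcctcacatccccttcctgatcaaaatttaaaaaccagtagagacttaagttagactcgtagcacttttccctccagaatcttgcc
Kcnma1 distal, chr14:23472512-23472761: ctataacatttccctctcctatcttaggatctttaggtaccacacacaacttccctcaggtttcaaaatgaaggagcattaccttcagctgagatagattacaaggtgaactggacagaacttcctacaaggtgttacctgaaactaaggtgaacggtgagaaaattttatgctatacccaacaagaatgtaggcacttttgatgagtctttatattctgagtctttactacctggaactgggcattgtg
Cacna1c intron, chr6:119037603-119037838: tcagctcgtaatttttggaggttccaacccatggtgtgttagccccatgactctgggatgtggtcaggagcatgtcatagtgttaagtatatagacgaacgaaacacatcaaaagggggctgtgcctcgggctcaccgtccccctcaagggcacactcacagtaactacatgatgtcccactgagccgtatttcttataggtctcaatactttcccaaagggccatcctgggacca

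The observed over expected CpG ratios of these stretches were 0.3 at Stim1, 0.1 at Kcnma1 and 0.408 at Cacna1c, and none held a GC box. The Stim1 stretch had 1 steroid receptor half-site, read on the other strand, and the other two matched none of the motifs.

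The pooled lists gave 140 H3K27ac and 263 H3K4me1 peaks in the loci. Of these, 39 (27.9%) and 109 (41.4%) were touched by a peak of every replicate of the mark, against 39.4% and 43.8% of all pooled peaks, and 21 (15.0%) and 43 (16.3%) were touched by none, against 8.3% and 12.7%. Support was weakest for H3K27ac at Itpr1, with 6 of 39 in all 3 replicates, and Kcnma1, with 3 of 18, and at Ryr2 and Kcnmb1, with 0 of 2 and 0 of 1. For H3K4me1 it ranged from 1 of 6 at Kcnmb1 and 13 of 55 at Cacna1c to 7 of 9 at Atp2a2. When replicate peaks had to reach −log10 p of 1.3, 14 and 17 pooled peaks were found in all replicates.

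The pooled intragenic H3K4me1 peak with the highest fold was at Atp2b1, 2.59 over 6828 bp at chr10:98916630-98923457, at the 99.7 percentile of its list. The next were 2.37 at Itpr1 (chr6:108444447-108445966), 2.33 at Kcnma1 (chr14:23439208-23440548), 2.31 at Ryr2 (chr13:11926008-11927494), 2.30 at Stim1 (chr7:102317805-102318139) and 2.24 at Cacna1c (chr6:118839109-118841099). Ano1 had 2.05 (chr7:144687940-144691380), Atp2a2 2.02 (chr5:122475837-122477785) and Orai1 1.79 (chr5:123018836-123019510), and Kcnmb1 had none. All were intronic, and all but that of Ryr2 (2 lists) had a peak in each of the 3 H3K4me1 replicates.

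For H3K27ac the top pooled intragenic folds were 2.15 at Itpr1 (chr6:108455051-108459132), 2.13 at Ano1 (chr7:144684601-144685721), 2.12 at Kcnma1 (chr14:23502368-23502994) and at Atp2b1 (chr10:98950274-98950867), and 2.07 at Stim1 (chr7:102388886-102392034). Cacna1c had 2.01 (chr6:119037316-119038219), Ryr2 1.85 (chr13:11926268-11927313), Atp2a2 1.82 (chr5:122482954-122483854) and Orai1 1.63 (chr5:123025173-123026369). The Orai1 peak was found in 0 of 3 replicates, and those of Itpr1, Kcnma1, Atp2b1, Stim1 and Cacna1c in 3 of 3. At their starts Kcnma1 and Ryr2 had H3K27ac in at most 1 of 3 replicates. Far inside the gene, the top pooled peak of Kcnma1 was found in 3 of 3 and that of Ryr2 in 2 of 3. Another intronic Ryr2 region, at chr13:11928810-11929397 and 177.8 kb into the gene, had H3K27ac in all 3 replicates, with folds of 1.36, 1.45 and 1.52.

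Other genes of the pathway were read in the same way, at their promoters and by role. Of 46 calcium and potassium genes, 14 had H3K27ac in all 3 lists, where 45.9% of all protein-coding genes did, and 15 had H3K4me1 in all 3, where 27.9% did. Both marks in all 6 lists were found at 11 (24.3% of all genes), and no promoter peak in any of the 6 at 11 (32.8%). Among 12 genes of store release, uptake and entry, 7 had H3K27ac in all 3, and Itpr2, Pln, Stim2, Orai3 and Saraf had both marks in all 6. Pln encodes phospholamban, the inhibitor of SERCA2, and Saraf an inhibitor of store-operated entry. Atp2a1 and Sln had no promoter peak in any of the 8 lists. The former encodes the pump of fast skeletal muscle, and the latter the SERCA inhibitor sarcolipin of striated muscle.

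Among 16 other potassium channel genes, 0 had H3K27ac in all 3 lists and 2 had H3K4me1 in all 3, named here after their values were seen: Kcnmb4, a BK subunit, and Kcnj8, the pore of a vascular KATP channel. Kcnq1, Kcnj11 and Kcnk3 had no promoter peak in any of the 8 lists. With Kcnma1 and Kcnmb1 added, H3K27ac thus repeated over 3 lists at no potassium channel gene read here, against 45.9% of all protein-coding genes, and the difference between the roles was not tested.

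Of 6 voltage-gated calcium channel genes, Cacna2d1 and Cacnb2, which encode auxiliary subunits, had both marks in all 6 lists. Of 8 other cation and chloride channels, Trpc1, Trpc4, Trpm7 and Ano6 did, and Ano2 had no promoter peak in any list. Of 4 further pumps and exchangers, 0 had H3K27ac in all 3 lists. The neuronal pump genes Atp2b2 and Atp2b3 had no promoter peak in any of the 8. Over the 46 genes, those with no cover included, the median body cover was 1.42% for H3K27ac and 2.81% for H3K4me1. Over the 10 members it was 2.99% and 6.76%. The medians of 4.25% and 5.40% over all protein-coding genes with cover leave out genes without cover, so they are not a like comparison. Among all protein-coding genes, those with no cover included, the Ryr2 means of 1.39% and 2.29% stood at the 50.8 and 55.2 percentiles.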

How the data were processed

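ChIC-Seq of H3K27ac and H3K4me1 (3 libraries each) and IgG (3) from oviductal muscle cells was analysed from the 6 replicate and 2 pooled peak lists. The submitters' processing notes name cutadapt, Bowtie2, MACS2 and build GRCm38.p5. Per the file headers, the authors called broad peaks with MACS 2.2.7.1 in paired-end mode, at p 0.05 for strong and 0.1 for weak regions, and scaled the larger library to the smaller. Pileup, as deposited, is thus fragment coverage on the IgG scale. Fold enrichment, as deposited, divides pileup by local background after adding 1 to both. The authors also deposited −log10 p-values, used here as a filter, and −log10 q-values, which were not used. The study paired with this series does not describe these libraries, so no step was taken from it.

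Genes and starts came from GENCODE M21 (GRCm38), and no peak ended past a chromosome of the reference. A gene was read as marked where at least 1 bp of a peak lay within 1 kb of any of its coding starts. Starts whose windows overlapped formed 1 cluster. Covered percent was the share of the gene body, or of 25 kb on each side, under peaks outside all promoter windows. Marks were compared by the exact permutation test, with Benjamini-Hochberg adjustment over all protein-coding genes. The fragments per library limit the precision, and the files give no counts per region. Fold percentiles are ranks within a list. Interval code was tested on simulated data, where 0 of 1200 results differed from counts made base by base. Python 3.11.15, numpy 2.4.6 and pandas 2.3.3 were used.

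All 10 members are named, with every other protein-coding gene whose promoter window lies in the loci, and, of the other pathway genes, those with promoter peaks in all 6 replicate lists or in none of 8, except for a result that is not reported here. Named regions are each member's longest distal region of both marks and its pooled intragenic peak of highest fold. The members and gene lists were chosen with earlier results of these data known. Promoter width, starts used, peak strength, flank, scaling, shared IgG and each left-out replicate were varied.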

Additional observations from a re-analysis of the deposited data

How the results depend on the processing

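Of 90 values computed under other settings for 8 counts, 67 stayed within 1.5 times the count given and 23 did not. With a promoter window of 250 bp, members with H3K27ac in all 3 lists numbered 4, with H3K4me1 2, with both marks in all 6 lists 2 and with no peak 2. With −log10 p of at least 1.3, they numbered 2 for H3K4me1, 2 for both marks and 3 for no peak, intragenic cover was separate in 4 and flanking cover in 1, distal regions of both marks numbered 9 and supported pooled peaks 31. An overlap of 500 bp left 2 members with no peak. Intragenic cover was separate in 4 members when counted as peaks per 10 kb and in 4 when divided by the genome share of the list. Distal regions in all 3 replicates of each mark numbered 30, and 55 pooled peaks were covered over 50% by every replicate. Leaving out 1 library gave 1 to 2 members with no peak (2, with Ryr2, without H3K27ac replicate 3), 3 to 5 with separate flanking cover (5 without H3K27ac replicate 3), 7 to 8 with separate intragenic cover and 49 to 80 distal regions. Those were 52, 49 and 61 without H3K27ac replicates 1, 2 and 3.

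The labels number the replicates of both marks 1 to 3. Deviations from the mark's mean over 14840 genes correlated at -0.067, 0.289 and 0.425 for the same-numbered lists, so the numbers were not taken as pairs. With the replicate block, intragenic cover was higher for H3K4me1 in 9 members (27.7% of all genes) and for H3K27ac in 0 (9.81%), and flanking cover differed one way in 7 (21.6% of all genes for H3K4me1 and 15.7% for H3K27ac). Lists that share an IgG library correlated at 0.289 to 0.425 and those that do not at -0.451 to 0.04. The deviations of a mark's lists sum to 0 in each gene, so high values in some pairs force low ones in others. Part of that contrast is therefore arithmetic. Among pairs sharing an IgG library, flanking cover differed one way in 9 members (27.3% and 17.1% of all genes). The cause of these changes was not tested. Peaks of low fold limit what a single list can show.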
